A study of Mus musculus with 31 samples.

Results

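The part of the olfactory nerve layer (ONL) furthest from the bulb at E16.5, called outer ONL here, was compared with the ONL at E13.5 across 19332 genes, from 9 of the 31 libraries of the series. The E16.5 outer ONL was measured in 4 laser-microdissected pieces from 4 embryos. The E13.5 ONL was measured in 5 pieces from 4 embryos, so at least 1 pair of pieces shares an embryo. All embryos carried the Sox10:H2BVenus transgene, a BAC reporter that labels nuclei in the Sox10 domain and guided the dissection, and no group was treated or mutant. The compared libraries are not those whose column names read E13.5 ONL. The study's own table of group means builds its E13.5 ONL value from the columns named E11.5 ON 1 to 4 together with E13.5 ON 1, and that regrouping was followed here. These 5 libraries are called E13.5 ONL below, and the 5 columns that carry the E13.5 ONL name are called the libraries labelled E13.5 ONL. In the same regrouping, numbers 2 to 5 of those labelled libraries stand as E11.5 olfactory nerve and number 1 as E13.5 olfactory nerve. A comparison with them is therefore one with E13.5 ONL only if the column names are right. If the column names were right instead, 4 of the 5 libraries would be E11.5 olfactory nerve from 2 embryos.

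The ONL is the surface layer of the olfactory bulb in which incoming axons of olfactory sensory neurons sort before they enter glomeruli. Its glia, the olfactory ensheathing cells (OECs), derive from the neural crest, depend on the transcription factor Sox10 and enfold bundles of axons along the whole nerve. At E16.5 an outer and an inner piece were cut by distance from the bulb, with no visible border to follow, and the study's own account is that the pieces do not resolve its molecular outer and inner OEC types. Outer ONL below therefore names a position, not an OEC type. The E13.5 layer was not split, so stage and position within the layer cannot be told apart in this comparison. Each piece is bulk tissue, in which fewer cells of a type and less RNA per cell cannot be told apart.

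The 4 outer ONL libraries held 14808477 to 16628064 counts and the 5 E13.5 libraries 3512627 to 27398916, the least in E11.5 ON 1. Counts from mitochondrial genes made up 0.653% to 1.02% of the outer libraries and 1.10% to 1.99% of the E13.5 libraries. By Xist and Ddx3y, 3 of the 4 outer libraries were male and 1 female, against 1 male and 4 female at E13.5. Levels are in CPM, the counts of a library scaled to a common total with TMM factors. The adjusted p comes from the quasi-likelihood test of edgeR, corrected by the Benjamini-Hochberg method over all 19332 genes, and a gene was called under an adjusted p of 0.05. Since some pieces share an embryo, every such p is too small to an unknown degree.

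Sox10 (ENSMUSG00000033006), the glial identity factor, checks the tissue first. It measured 624, 674, 572 and 712 CPM in the outer ONL libraries and 71.4, 110, 179, 131 and 219 CPM in the E13.5 libraries. The groups do not overlap, and the log2 fold change was 2.18 (SE 0.25, adjusted p = 4.58e-08). Sox10 RNA was present in all 9 libraries.

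Between the groups 8095 genes were called, which is 41.9% of those tested. Of these, 4226 rose in the outer ONL (21.9%) and 3869 fell (20.0%). In 6219 genes (32.2%) the 4 and the 5 libraries did not overlap. Against the libraries labelled E13.5 ONL, 3511 genes were higher in the outer ONL (18.2%) and 3299 lower (17.1%), and 4192 of the 8095 genes, or 51.8%, were called in the same direction there. Of the 184 genes named by rule, 34 lost their call against those labelled libraries and 31 changed sign. Values from those libraries are given below for some genes and lists only, so other calls need not hold there.

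**Figure D1:**
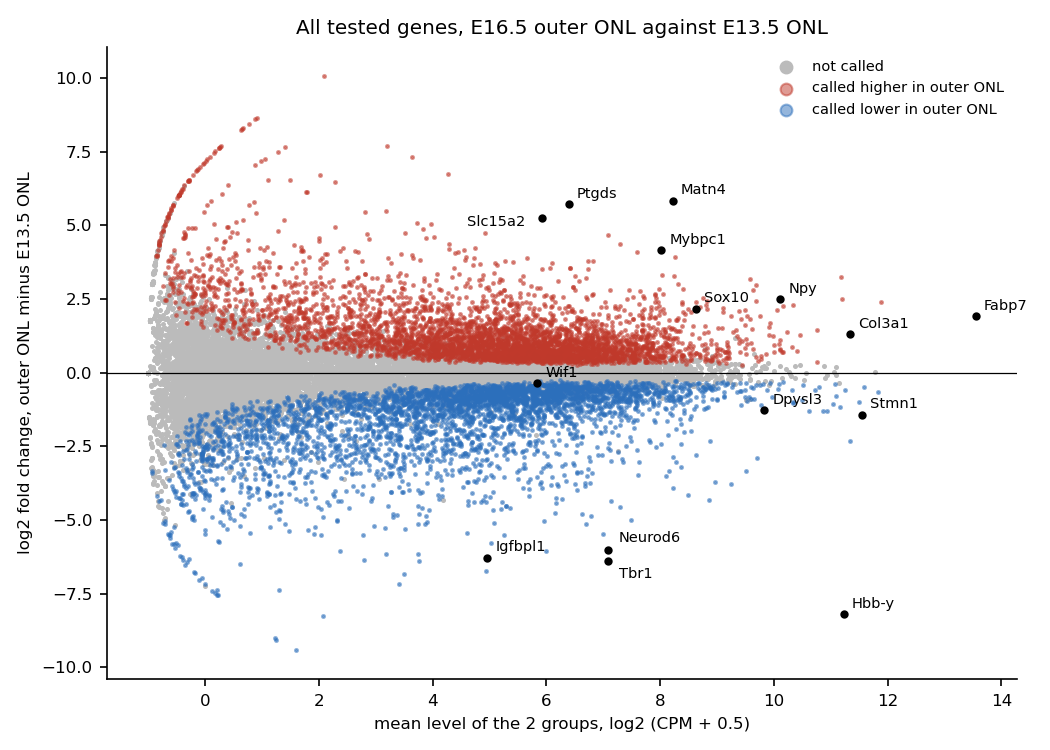
Every tested gene, with the mean level of both groups on the x axis (log2 of CPM + 0.5) and the log2 fold change of outer ONL over E13.5 ONL on the y axis. Red and blue points are the 4226 higher and 3869 lower genes, grey points were not called, and black points are named genes, from Matn4 at 5.84 to Hbb-y at -8.19.

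Genes listed for OECs of the nerve layer were mostly higher in the outer ONL than at E13.5. The list is for the layer as a whole and holds genes of its inner side too. Of the 9 genes listed as particular to OECs of the nerve layer, 7 rose and none fell, beside 21.9% and 20.0% of all genes. The median log2 fold change was 2.49, beside a median of 0 over all genes. The list was drawn up on samples of this series at E16.5, so its direction is not independent evidence. Ptgds, the lipocalin-type prostaglandin D synthase, read 206, 184, 129 and 137 CPM in the outer ONL and 0.83, 1.87, 4.16, 2.08 and 4.94 CPM at E13.5. This gene was nearly silent at E13.5, and its log2 fold change was 5.73 (SE 0.53, adjusted p = 1.04e-09). By in situ hybridisation the study also saw Ptgds, very strongly, in the leptomeninges, and their part in the rise was not tested. Npy, the neuropeptide Y precursor, stood at 2915, 1845, 1338 and 1397 CPM in the outer ONL and at 166, 313, 458, 329 and 398 CPM at E13.5. Every outer library exceeded every E13.5 library, with a log2 fold change of 2.49 (SE 0.42, adjusted p = 2.04e-05). Prss56, a secreted serine protease, had 580, 244, 450 and 377 CPM against 32.9, 69.1, 65.1, 75.9 and 90.0 CPM. Again no values overlapped, and the log2 fold change was 2.62 (SE 0.46). Nkd2, an inhibitor of Wnt signalling, rose by 2.79 (SE 0.21) on the log2 scale, Vtn, the adhesion protein vitronectin, by 2.97 (SE 0.72), Frzb, a secreted Wnt antagonist, by 1.79 (SE 0.23) and Lypd6, a membrane-anchored Wnt modulator, by 1.40 (SE 0.27). The remaining pair was not called. Wif1, another secreted Wnt inhibitor, read 63.7, 41.7, 53.9 and 39.7 CPM against 56.5, 51.8, 72.6, 67.5 and 67.8 CPM, and Hes5, a Notch target, read 35.0, 22.7, 30.3 and 35.2 CPM against 6.36, 50.9, 36.9, 18.1 and 63.2 CPM. Both ranges overlap. Against the libraries labelled E13.5 ONL all 9 were called higher, beside 18.2% of all genes, with a median of 5.09. The study's in situ hybridisation placed Npy, Prss56, Wif1, Vtn and Hes5 in layer OECs at about E13.5, but not in OECs at E11.5. The labelled libraries averaged 1.204, 0.156, 0.0829, 42.4 and 4.665 CPM of these in that order. The 5 libraries used here averaged 332.5, 66.6, 63.2, 185 and 35.1 CPM. Against the libraries labelled E11.5 ON, 4 of the 9 were called, with a median of 2.56. In the inner ONL, set beside the same E13.5 libraries, 7 of the 9 rose, beside 18.0% of all genes, with a median of 2.31.

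OEC genes shared by the whole nerve also mostly rose. Of the 9 pan-OEC genes, 7 rose and Dpysl3 fell, beside 21.9% and 20.0% of all genes, with a median log2 fold change of 1.60. This list too was chosen on the present samples. Ptn, the growth factor pleiotrophin, rose from a mean of 1221 ± 229 CPM (SD, n = 5) to 6368 ± 1547 CPM (SD, n = 4), a log2 fold change of 2.38 (SE 0.19, adjusted p = 9.37e-11). The study also saw Ptn in mesenchyme next to the layer at E16.5, but not there at about E13.5. How much that mesenchyme adds to the rise was not tested. Nell2, a secreted axon guidance ligand, rose by 2.12 (SE 0.27). Heyl and Hey2, transcriptional repressors that are targets of Notch signalling, rose by 1.85 (SE 0.26) and 1.20 (SE 0.27). Heyl was also strong in vascular cells in the study's in situ hybridisation. Ptprz1, a phosphatase receptor for pleiotrophin, rose by 1.80 (SE 0.19) and Sema6a by 1.60 (SE 0.15). Adgrg1, an adhesion receptor, rose by 1.25 (SE 0.25). Dpysl3, a cytoskeletal protein also made in growing axons, read 404, 598, 395 and 721 CPM in the outer ONL and 1278, 1573, 1278, 1155 and 1165 CPM at E13.5. It was lower in each outer library, and fell by 1.28 on the log2 scale (SE 0.18, adjusted p = 7.94e-07). In the inner ONL Dpysl3 averaged 1185 CPM, beside 1290 CPM at E13.5, and was not called (log2 fold change -0.12). Against the libraries labelled E13.5 ONL its change of -0.34 was not called either (edgeR, adjusted p = 0.16).

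Genes shared by OECs and Schwann cells gave the same picture. Of 7 such genes, 6 rose, beside 21.9% of all genes, and Fyn, a kinase, did not, at 168 to 194 CPM and 137 to 250 CPM. Mmd2 rose by 2.80 (SE 0.31), Cntn1, an axon-glial adhesion molecule, by 2.21 (SE 0.34), the transcription factor Zbtb20 by 2.06 (SE 0.19) and Sox5 by 1.74 (SE 0.28). The 5 genes listed for mucosal OECs and Schwann cells stayed low, with sums of 51.4 to 88.9 CPM in the outer ONL and 17.2 to 47.4 CPM at E13.5. Sema3b, a repulsive guidance cue, rose by 2.69 (SE 0.37) and Sostdc1, a Wnt and BMP antagonist, by 4.22 (SE 0.72). Sostdc1 was at 1.30 CPM in outer library 1 and at 8.48 to 15.9 CPM in the other outer libraries, so that the groups overlapped.

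The 30 genes were then read beside Sox10 itself, as the difference from Sox10 in the same library in log2 (CPM + 0.5), an alternative chosen after the data were seen. The exact permutation test (two-sided) over the 126 arrangements of the 9 libraries can reach p = 0.00794 at the smallest, which became an adjusted p of 0.0111 over the 19331 other genes. Pieces that share an embryo make these values too small as well. Relative to Sox10, 17721 genes (91.7%) were lower in the outer ONL, with a median of -2.27 over all genes, 45 (0.233%) higher and the remaining 8.1% not called. Of the 29 OEC genes, 2 were higher, 9 lower and 18 not called. The OEC lists were drawn up on samples of this series at E16.5, and all genes centred on -2.27. The 18 of 29 not called, beside 8.1% of all genes, is therefore not independent evidence. Ptgds was higher by 3.52 and Vtn by 0.70 (exact permutation test, adjusted p = 0.0111 and 0.0266). Among the 9 that were lower were Dpysl3 (-3.60), Wif1 (-2.64), Fyn (-2.26), Hes5 (-2.11), Hes1 (-1.88), Sfrp5 (-1.36) and Hey2 (-1.04). A missed threshold does not show that the 18 genes rose exactly as Sox10 did.

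**Figure D2:**
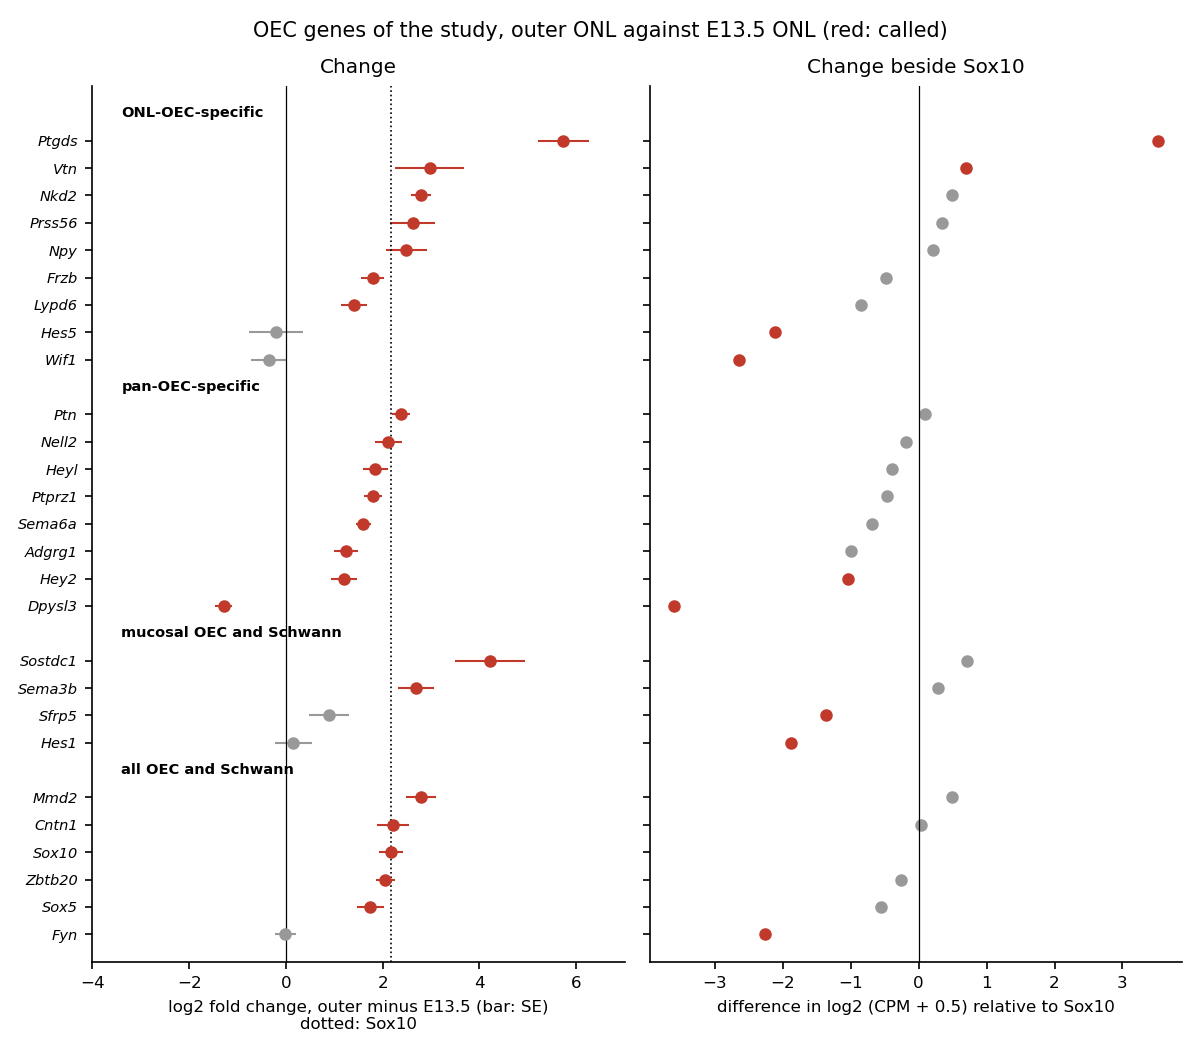
OEC genes by list (27 of the 30), with the log2 fold change of outer ONL over E13.5 ONL and its SE on the left and the change relative to Sox10 on the right, called genes in red. On the left most genes lie between 1.20 and 2.97, and on the right Ptgds stands alone at 3.52 while Dpysl3, Wif1, Fyn and Hes5 lie below -2.

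The largest rises among all genes were taken by the fixed rule (called, no overlap, at least 50 CPM in the higher group), for which 1578 genes qualified. Matn4 (ENSMUSG00000016995), the matrix protein matrilin 4, led with 521, 449, 688 and 679 CPM in the outer ONL and 8.58, 6.62, 3.90, 14.5 and 16.6 CPM at E13.5. Its log2 fold change was 5.84 (SE 0.46, adjusted p = 8.48e-11). After Ptgds came Slc15a2, a peptide transporter, with 87.7 to 147 CPM against 0.311 to 6.64 CPM, and Zpld1, a zona pellucida domain protein, with 222 to 294 CPM against 3.60 to 19.6 CPM. Both were well separated in every library. Itga7, a laminin-binding integrin subunit, rose by 4.37 (SE 0.49), Mybpc1, a myosin-binding protein best known from slow muscle, by 4.16 (SE 0.46), and Aldoc, the brain form of aldolase, by 4.08 (SE 0.53). Fam198a, Nqo1, Angptl7 and Chodl rose by 3.79 to 3.88. Angptl7, a secreted angiopoietin-like protein, was uneven, at 14.9 CPM in outer library 1 and 67.0 to 125 CPM in the others. By level, the highest called genes that rose included Fabp7, a fatty acid binding protein of radial glia and OECs (5012 ± 1004 to 18930 ± 5140 CPM, SD, n = 5 and 4), Ptn, Selenop, Col3a1 and Sparc.

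Mature glial genes rose more often than they fell, and each list count here stands beside 21.9% and 20.0% of all genes. Of 28 such genes tested, 15 rose and 5 fell, with a median log2 fold change of 1.17. S100b, a calcium-binding glial marker, had 112, 125, 95.2 and 108 CPM in the outer ONL and 9.68, 4.54, 9.76, 9.03 and 15.1 CPM at E13.5. The log2 fold change was 3.50 (SE 0.36, adjusted p = 5.65e-09), and in the inner ONL its mean was 32.7 CPM. Aqp4, a water channel of astrocytes, rose by 3.24 (SE 0.54). Id4 and Id2, inhibitors of basic helix-loop-helix factors, fell by 3.22 (SE 0.46) and 1.74 (SE 0.24). Slc1a2, a glutamate transporter, fell by 3.25 (SE 0.59). It was at 46.4 to 95.2 CPM at E13.5, 0.153 to 14.7 CPM in the outer ONL and 53.5 CPM on average in the inner ONL. Of 19 myelin genes, 10 rose and 2 fell. Mal rose by 3.28 (SE 0.44), Gjc3, a glial connexin, by 2.59 (SE 0.29), and Cnp, a phosphodiesterase of myelinating glia, by 2.55 (SE 0.24), while the POU factors Pou3f1 and Pou3f2, which are also neuronal genes, fell by 5.08 (SE 0.67) and 4.39 (SE 0.82). Of 20 neural crest and early glial regulators, 11 rose and 3 fell. Gas7 rose by 2.51 (SE 0.18), Ednrb, the endothelin receptor, by 2.15 (SE 0.33), Cdh19, a cadherin of crest-derived glia, by 2.11 (SE 0.26) and Erbb3, the neuregulin receptor, by 1.70 (SE 0.25), and Sox6 fell by 1.90 (SE 0.39).

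Of 23 Notch pathway genes tested, 7 rose and 4 fell, not far from the 21.9% and 20.0% over all genes. Notch1 rose from 28.1 ± 5.46 CPM (SD, n = 5) to 77.3 ± 3.42 CPM (SD, n = 4), a log2 fold change of 1.46 (SE 0.18, adjusted p = 1.34e-07). The ligand Dll1 fell from 12.4 to 17.5 CPM at E13.5 to 0.640 to 1.82 CPM, by 3.44 (SE 0.43), and the ligand Jag1 fell by 1.41 (SE 0.31). Hes6, a Hes family member active in neuronal differentiation, fell by 0.94 (SE 0.26), and Hes1 stayed at 12.3 to 22.3 CPM against 4.70 to 28.0 CPM. Of 29 Wnt genes, 11 rose and Sfrp1 alone fell, by 1.11 (SE 0.30), beside the same shares over all genes. Next to Nkd2, Frzb and Lypd6, Nkd1 rose by 1.88 (SE 0.34).

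Genes of the cell cycle were higher in the outer ONL. Of 30 mitosis genes, 25 rose and none fell, beside 21.9% and 20.0% of all genes, with a median log2 fold change of 0.78. Of 28 S phase genes, 21 rose and none fell, with a median of 0.59. Kif20a, a kinesin of cytokinesis, had the largest change of the mitosis genes, with 198, 104, 155 and 105 CPM against 88.0, 39.0, 40.2, 90.7 and 58.5 CPM and a log2 fold change of 1.16 (SE 0.24). Cdc20, an activator of the anaphase-promoting complex, read 374, 237, 288 and 272 CPM in the outer ONL and 113, 116, 122, 151 and 168 CPM at E13.5. Ccnb2, cyclin B2, read 359, 244, 266 and 243 CPM and 129, 94.3, 102, 173 and 137 CPM. Neither gene overlapped between the groups, and each had a log2 fold change of 1.13 (SE 0.15, adjusted p = 5.91e-07 and 5.79e-07). In S phase, Mcm3, a subunit of the replicative helicase, rose by 1.24 (SE 0.19), Cdc6, a loader of that helicase, by 1.19 (SE 0.18) and E2f2 by 1.00 (SE 0.31). Among 12 cyclin-dependent kinase inhibitors, D cyclins and pocket proteins, 2 rose and 2 fell, near or below the shares over all genes. Cdkn1c, an inhibitor of the cycle, fell by 1.34 (SE 0.45) and Rb1 by 1.44 (SE 0.24), while Cdkn2c rose by 1.13 (SE 0.44) and Rbl1 by 0.45 (SE 0.15). These calls are weak: none of the list rose with library totals as the scale or without outer library 3, 1 rose without outer library 1 or 4 or any 1 E13.5 library, and Cdkn1c lost its call without outer library 1 (adjusted p = 0.0718, edgeR). The cell cycle rise was smaller against the libraries labelled E13.5 ONL. There 12 mitosis genes and 9 S phase genes rose and 3 S phase genes fell, beside 18.2% and 17.1% of all genes. In the inner ONL, 19 mitosis and 15 S phase genes rose (18.0% of all genes rose there and 16.4% fell), from the same E13.5 libraries.

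Promoters of Cdc20 and Ccnb2 are printed because these genes moved by the same amount. Each run is the 250 bases before the start site, from RefSeq on GRCm38.p6, 5′ to 3′ on the gene's strand. Capitals mark matches on either strand to CCAAT, the CCAAT box, and to TTTGAA, the core letters of the cell cycle homology region known from mitotic promoters.
Cdc20 (chr4:118437344-118437593, minus strand): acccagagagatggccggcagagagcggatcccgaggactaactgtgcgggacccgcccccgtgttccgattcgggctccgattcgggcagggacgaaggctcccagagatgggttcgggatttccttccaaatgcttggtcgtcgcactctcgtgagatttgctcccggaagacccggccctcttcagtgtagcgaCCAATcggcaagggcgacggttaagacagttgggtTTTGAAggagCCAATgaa
Ccnb2 (chr9:70421555-70421804, minus strand): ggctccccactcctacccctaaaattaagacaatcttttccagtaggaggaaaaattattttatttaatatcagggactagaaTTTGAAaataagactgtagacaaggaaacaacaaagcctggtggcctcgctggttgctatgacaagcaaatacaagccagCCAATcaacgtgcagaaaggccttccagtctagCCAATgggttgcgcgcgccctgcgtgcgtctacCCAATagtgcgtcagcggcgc
Cdc20 holds 2 CCAAT matches and 1 TTTGAA match, and Ccnb2 holds 3 and 1. Of 32544 promoters of this length, 33.8% hold a CCAAT match and 15.8% a TTTGAA match, so matches alone are common.

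The largest fall of all was in embryonic globin RNA. All 3 embryonic globins fell, with log2 fold changes of -8.19 (Hbb-y, SE 0.86), -6.39 (Hbb-bh1, SE 0.77) and -4.99 (Hba-x, SE 0.59). Hbb-y (ENSMUSG00000052187), the main embryonic beta-like chain, read 18.1, 11.8, 24.6 and 10.8 CPM in the outer ONL and 2914, 6199, 4427, 5744 and 4564 CPM at E13.5. Hba-x, the embryonic alpha-like chain, lay at 4.64 to 17.8 CPM against 155 to 556 CPM. Hbb-bh1 read 0.153, 0.314, 0.640 and 0.122 CPM and 9.68, 32.8, 29.7, 36.5 and 19.3 CPM. The groups are far apart for each of the 3 genes. The definitive chains went up or did not pass the test, and they were already present at E13.5, with Hba-a1 at a mean of 816 CPM. Hba-a1 rose by 1.28 (SE 0.44) and Hbb-bs by 1.67 (SE 0.60), and both groups of libraries overlapped. Neither was called without outer library 1, and 1 of them without outer library 3 or E11.5 ON 1, 2 or 3. Hbb-bt and Hba-a2 were not called (adjusted p = 0.0793 and 0.383). Reads can be shared among the near-identical definitive genes, so their separate values are uncertain. Embryonic chains made up 0.450%, 0.553%, 0.736% and 0.581% of all globin counts in the outer ONL and 71.1%, 79.9%, 80.5%, 72.1% and 58.6% at E13.5. The mean share went from 72.4% ± 8.87 (SD, n = 5) to 0.58% ± 0.118 (SD, n = 4) (exact permutation test, two-sided, p = 0.00794, the smallest the design allows). Some E13.5 pieces share an embryo, which makes that p too small. By kind, embryonic genes made up 75.5% to 94.2% of beta-like counts at E13.5 but 12.6% to 31.7% of alpha-like counts. The drop to the outer ONL was 84 percentage points for beta-like and 24.1 for alpha-like genes. Of 9 other red cell genes, 2 rose, close to the 21.9% over all genes. Among them was Alas2, the first enzyme of haem synthesis in red cells, which rose by 1.86 (SE 0.49). Globin RNA marks blood in the piece, not nerve tissue. In 4 of the libraries labelled E13.5 ONL, numbers 2 to 5, the embryonic share was 89.0% to 91.8% and Hbb-bh1 170 to 2400 CPM, whereas library 1 of that name had 71.5% and 39.5 CPM, near the 5 libraries used here.

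**Figure D3:**
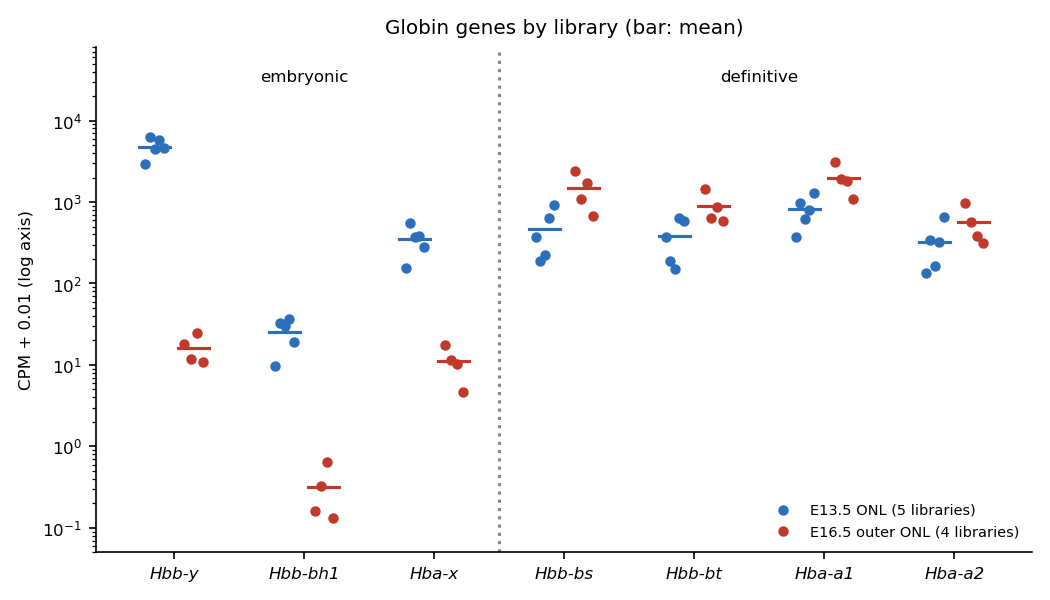
CPM of 7 globin genes by library on a log axis (0.01 added), blue for the 5 E13.5 ONL and red for the 4 outer ONL libraries, with bars at the mean. The 3 embryonic genes are separated, as with Hbb-y at 2914 to 6199 against 10.8 to 24.6 CPM, and the 4 definitive genes overlap.

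The beta-like promoters are shown since the embryonic gene Hbb-y fell while its definitive neighbours did not. Each run is again the 250 bases before the start site from RefSeq on GRCm38.p6, and capitals mark matches on either strand to the CCAAT box, the CACCC box, a GATA site and a TATA-like element, with the letters given below.
Hbb-y (chr7:103853208-103853457, minus strand): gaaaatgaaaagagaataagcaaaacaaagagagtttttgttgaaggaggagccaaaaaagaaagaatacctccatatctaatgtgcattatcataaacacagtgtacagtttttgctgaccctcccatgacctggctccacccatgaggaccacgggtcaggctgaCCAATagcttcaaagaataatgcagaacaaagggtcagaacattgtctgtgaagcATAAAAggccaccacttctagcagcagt
Hbb-bs (chr7:103827929-103828178, minus strand): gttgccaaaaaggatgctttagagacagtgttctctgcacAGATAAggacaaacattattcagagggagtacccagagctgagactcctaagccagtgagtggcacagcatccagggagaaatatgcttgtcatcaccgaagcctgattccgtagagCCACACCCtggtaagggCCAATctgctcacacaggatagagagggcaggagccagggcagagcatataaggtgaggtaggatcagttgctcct
Hbb-bt (chr7:103813924-103814173, minus strand): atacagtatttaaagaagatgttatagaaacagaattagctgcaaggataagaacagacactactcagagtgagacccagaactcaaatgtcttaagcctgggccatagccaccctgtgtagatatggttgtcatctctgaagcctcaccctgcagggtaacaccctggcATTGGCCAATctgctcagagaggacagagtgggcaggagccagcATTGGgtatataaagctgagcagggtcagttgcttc
CCAAT occurs in each of the 3, with 1 match in Hbb-y, 1 in Hbb-bs and 3 in Hbb-bt, of which a pair in Hbb-bt lies close together. The CACCC box, CCACACCC, is found in Hbb-bs, and 3.2% of the 32544 promoters hold it. The TATA-like ATAAAA is found in Hbb-y, as in 16.9% of promoters. Hbb-bs also holds the GATA site AGATAA, as do 9.97%. A missing match says only that these letters are not in the window.

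Genes of early embryonic cells fell. Of 14 RNA-binding and chromatin genes of that kind, 7 fell and Dnmt1 rose, beside 20.0% and 21.9% of all genes. Hmga2, a chromatin protein of early progenitors, read 1.46, 4.46, 4.55 and 3.17 CPM in the outer ONL and 43.2, 37.8, 51.0, 48.4 and 43.9 CPM at E13.5. The groups were wide apart, with a log2 fold change of -3.71 (SE 0.31, adjusted p = 1.61e-10). Lin28b, which blocks maturation of let-7 miRNAs, read 0.614 to 3.52 CPM against 10.1 to 12.1 CPM and fell by 2.45 (SE 0.43), and Igf2bp1, an RNA-binding protein, fell by 2.05 (SE 0.23). Dnmt1, the maintenance DNA methyltransferase, rose by 0.77 (SE 0.17). Of 16 imprinted genes, 3 rose and 5 fell, beside 21.9% and 20.0% of all genes. Without outer library 1, 5 rose. The maternally expressed Meg3 fell by 1.48 (SE 0.40), the paternally expressed Peg10 by 1.67 (SE 0.31), and Gnas rose by 2.92 (SE 0.44), with outer library 1 at 12.4 CPM and the others at 43.8 to 59.1 CPM.

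Genes of bulb and forebrain neurons were mostly lower. Of 30 such genes, 20 fell and none rose, beside 20.0% and 21.9% of all genes, with a median log2 fold change of -2.57. Of 15 radial glial genes of the forebrain, 11 fell and none rose, with a median of -3.04. Tbr1, a factor of bulb projection neurons, read 0.614, 7.22, 1.14 and 3.54 CPM in the outer ONL and 208, 328, 346, 228 and 228 CPM at E13.5, with a log2 fold change of -6.39 (SE 0.62, adjusted p = 2.25e-09). Outer libraries 2 and 4 held more of it than libraries 1 and 3, but all were far under E13.5. Neurod6 showed the same order, with 0.0767, 10.2, 0.498 and 5.07 CPM against 206 to 397 CPM, and fell by 6.03 (SE 0.77). Of the 12 largest falls, Tbr1, Neurod6, Lhx9 and Bcl11b are on the neuron list and Fezf2 on the radial glial list. Fezf2, a forebrain patterning factor, fell by 6.74 (SE 0.97), Igfbpl1 by 6.28 (SE 0.72), Islr2, a membrane protein of growing axons, by 6.07 (SE 0.58), Lhx9 by 5.78 (SE 0.49), Tfap2e, a factor of vomeronasal and bulb neurons, by 5.52 (SE 0.80), Cntnap2 by 5.47 (SE 0.45), Bcl11b by 5.13 (SE 0.55), Slco5a1 by 5.11 (SE 0.64) and Mir124-2hg, the host transcript of a neuronal miRNA, by 5.05 (SE 0.61). The bulb neuron list summed to 82.2 to 426 CPM in the outer ONL and 2273 to 2897 CPM at E13.5. In the E16.5 inner ONL, set beside the same E13.5 libraries, 7 of the 30 neuron genes rose and 10 fell, with a median of -0.64. Of the radial glial genes 9 fell there, with a median of -2.86. Over all genes 18.0% rose there and 16.4% fell. Tbr1 averaged 25.9 CPM in the inner ONL, Bcl11b 39.4 CPM, and Reln, an extracellular guidance protein, 348 CPM, the last beside 285 ± 78.3 CPM (SD, n = 5) at E13.5 and 51.0 ± 42.0 CPM (SD, n = 4) in the outer ONL. This group depends strongly on which libraries stand for E13.5, and most labelled E13.5 ONL stand as E11.5 olfactory nerve in the regrouping. Against the libraries labelled E13.5 ONL, 6 of the neuron genes were higher and 10 lower, beside 18.2% and 17.1% of all genes. There Tbr1 was at -0.56 (edgeR, adjusted p = 0.77), Neurod6 at 5.42 (adjusted p = 0.042) and Tfap2e at 6.19 (adjusted p = 0.0367). Fezf2, Islr2, Cntnap2, Lhx9 and Mir124-2hg were lower but not called there, while Igfbpl1, Bcl11b and Slco5a1 were still called lower.

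Genes of immature sensory neurons fell more often than they rose, and those of mature sensory neurons rose more often than they fell. Of 16 genes of immature olfactory sensory neurons, 9 fell and 3 rose, beside 20.0% and 21.9% of all genes. Tubb3, the neuronal tubulin, read 11.3, 199, 23.7 and 95.8 CPM in the outer ONL and 857, 1578, 1216, 1129 and 892 CPM at E13.5, and fell by 3.78 (SE 0.50). Dcx fell by 3.91 (SE 0.50) and Stmn2 by 3.34 (SE 0.39), and outer libraries 2 and 4 were again above 1 and 3 in both. Tuba1a and Stmn1, among the most abundant genes that fell, fell by 2.33 (SE 0.27) and 1.43 (SE 0.15). Ncam1 rose by 0.81 (SE 0.16). In the inner ONL 2 of the 16 genes rose and 2 fell, with a median of -0.06, beside 18.0% and 16.4% of all genes. Tubb3 and Stmn2, at means of 606 and 810 CPM, were not called there. Of 20 genes of mature sensory neurons, 10 rose and 3 fell in the outer ONL, beside 21.9% and 20.0% of all genes. Their sums overlapped, at 458 to 514 CPM in the outer ONL and 383 to 573 CPM at E13.5. Omp, the olfactory marker protein, read 14.1, 14.6, 10.4 and 12.1 CPM against 1.11, 0.072, 0.65, 1.04 and 0.143 CPM, a log2 fold change of 4.72 (SE 0.61, adjusted p = 3.2e-07). Cngb1, a subunit of the olfactory transduction channel, rose by 4.09 (SE 0.71). Slc17a6, a glutamate transporter used by several neuron types, fell by 3.86 (SE 0.59), and Pde1c by 2.12 (SE 0.24). In the RNA of an axon layer these transcripts come from axons or from cell bodies caught in the piece, which cannot be told apart here.

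**Figure D4:**
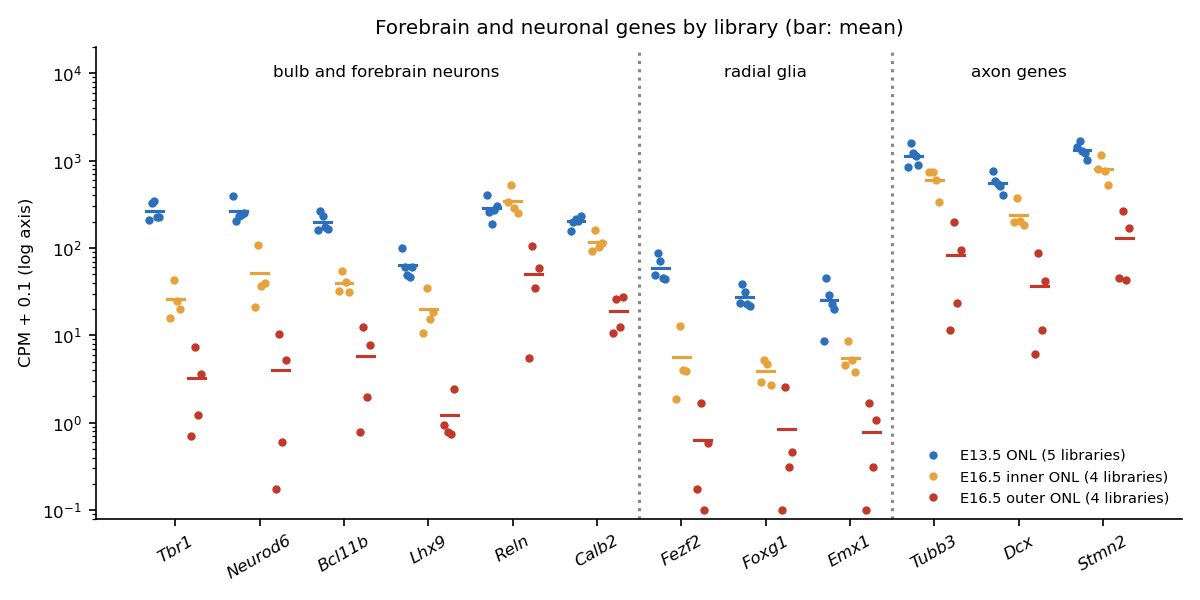
CPM of 12 neuronal and forebrain genes by library on a log axis (0.1 added), for E13.5 ONL (blue, 5 libraries), E16.5 inner ONL (orange, 4) and E16.5 outer ONL (red, 4), with bars at the mean. Tbr1 averages 267, 25.9 and 3.13 CPM in that order, while Reln averages 285, 348 and 51.0 CPM.

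Connective and vascular genes rose more often than they fell, beside 21.9% of all genes that rose and 20.0% that fell. Of 24 fibroblast and mesenchyme genes, 14 rose and 3 fell, and the list summed to 8695 to 15370 CPM in the outer ONL and 3028 to 5869 CPM at E13.5. Col6a1, a collagen VI chain, rose by 2.79 (SE 0.30), Dcn, a small proteoglycan, by 2.45 (SE 0.53) and Col1a1 by 2.29 (SE 0.32). Col1a1 read 208, 776, 780 and 1196 CPM, so that outer library 1 lay within the E13.5 range of 93.5 to 225 CPM. Of 15 cartilage and bone genes, 11 rose and none fell. Here outer library 1 stood apart, with Matn1 at 1.46, 32.5, 33.2 and 28.0 CPM, Acan at 1.15, 24.1, 23.6 and 17.5 CPM and Cnmd at 6.29, 51.4, 64.3 and 51.6 CPM. Matn1 was at 0 in 4 of the 5 E13.5 libraries and at 0.394 CPM in the fifth. All 13 mural cell genes rose, with a median of 2.11, among them Des, the muscle filament desmin, by 2.47 (SE 0.31). Vtn is among them too and is also on the OEC list drawn up at E16.5. Acta2, smooth muscle actin, was at 2.38 CPM in outer library 1 and 71.6 to 81.8 CPM in the others. Of 21 endothelial genes, 11 rose and Plvap, a gene of leaky vessels, fell by 1.29 (SE 0.48), a call lost without outer library 1, 2 or 4, E11.5 ON 2 or E13.5 ON 1 (edgeR adjusted p = 0.0552 to 0.101). Those that rose included genes of the blood-brain barrier, with Slco1c1 at 3.15 (SE 0.58), Mfsd2a at 2.16 (SE 0.33) and Cldn5 at 1.58 (SE 0.37) on the log2 scale. Of 15 meningeal genes, 5 rose and 4 fell, beside 21.9% and 20.0% of all genes. Slc6a13, a GABA transporter, rose by 2.68 (SE 0.57) and Islr by 1.66 (SE 0.26), while Zic1 fell by 3.39 (SE 0.52), Crabp2 by 2.08 (SE 0.29) and Foxc1 by 1.04 (SE 0.31). Of 22 macrophage genes, 2 rose, among them Tmem119, below the share over all genes. In the inner ONL, where the OEC lists also rose, 3 fibroblast genes rose and 13 fell, and 9 meningeal genes fell and none rose. Of the endothelial genes 2 rose and 4 fell there, of the mural genes 5 rose, and of the cartilage genes 4 rose and 2 fell. Over all genes, 18.0% rose in the inner ONL and 16.4% fell, so the endothelial counts were near or below those shares. No defining marker of these classes was at 0 in all outer libraries, and the part of these cells in the OEC results was not tested.

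Lists drawn from genes seen by in situ hybridisation outside the layer moved as follows, beside 21.9% of all genes that rose and 20.0% that fell. Of 25 genes seen in the olfactory bulb, 15 fell and 2 rose, with Osr2 higher by 4.07 (SE 0.45) and Pou3f3 lower, falling by 4.53 (SE 0.69). Of 20 genes seen in mesenchyme near the layer, 6 rose and 2 fell, with Bmper higher by 2.27 (SE 0.59), Gdf10 by 1.67 (SE 0.49), Ccn4 by 1.00 (SE 0.27) and Epha3 falling by 3.70 (SE 0.53). Of 19 genes seen in the olfactory epithelium, 3 rose and 6 fell, among them Mapk13 (1.64, SE 0.29) and Crabp1, which fell by 2.72 (SE 0.39). Of 10 other epithelial genes tested, 2 rose and none fell, and their sums were 11.3 to 17.5 CPM and 5.26 to 17.7 CPM.

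Extracellular matrix of the nerve was a further group that rose. Of 29 genes, 20 rose and 3 fell, beside 21.9% and 20.0% of all genes, with a median log2 fold change of 1.40. After Matn4, Egfl8 rose by 3.27 (SE 0.29) and Fbln2, the matrix protein fibulin 2, by 2.84 (SE 0.23), from 51.0 to 104 CPM to 487 to 636 CPM. The 3 that fell were Reln by 2.48 (SE 0.43), Ncan by 1.20 (SE 0.24) and Vcan by 0.64 (SE 0.21), the last pair being proteoglycans of neural tissue. Vcan was not called without E11.5 ON 4 (edgeR, adjusted p = 0.0576). Guidance genes were split. Of 31 semaphorins, plexins and neuropilins, 8 rose and 11 fell, beside 21.9% and 20.0% of all genes. Sema3g rose by 2.71 (SE 0.59) beside Sema3b and Sema6a, and Sema6c fell by 2.88 (SE 0.39), the receptor Plxna4 by 2.77 (SE 0.38) and Sema3e by 2.53 (SE 0.40). Sema3e averaged 22.6 CPM in the inner ONL, beside 21.9 CPM at E13.5 and 3.71 CPM in the outer ONL.

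Of 28 neurotrophic genes, 7 rose and 7 fell, close to the shares over all genes. Igfbp5 rose by 2.32 (SE 0.28), Ntrk2, the BDNF receptor, by 2.21 (SE 0.33) and Gfra2, a co-receptor for neurturin, by 1.91 (SE 0.42), while Igfbp2 fell by 1.68 (SE 0.50) and Ntrk3 by 1.56 (SE 0.39). Of 11 neuregulin and ErbB genes, 3 rose and 2 fell, again close to those shares. Besides Erbb3, its partner Erbb2 rose by 1.15 (SE 0.23) and the ligand Hbegf by 1.40 (SE 0.17), and Erbin, which binds Erbb2, fell by 0.77 (SE 0.16).

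Lipid, redox and clearance genes rose more often than they fell, beside 21.9% of all genes that rose and 20.0% that fell. Of 24 cholesterol synthesis and uptake genes, 12 rose and none fell, with Mvd at 0.98 (SE 0.19) and Dhcr7 at 0.90 (SE 0.22). In the inner ONL 20 of them rose, and against the libraries labelled E13.5 ONL 5 did, beside 18.0% and 18.2% of all genes. Of 18 secreted carriers, 8 rose and 4 fell. Apod rose by 2.23 (SE 0.28) and Ttr, a thyroxine carrier, by 3.24 (SE 0.68), and Fabp5 fell by 2.19 (SE 0.20). Of 22 detoxification genes, 13 rose and 2 fell. Nqo1, a quinone reductase, read 284, 202, 172 and 174 CPM against 23.2, 16.8, 13.0, 13.2 and 10.2 CPM, Sod3, the secreted superoxide dismutase, rose by 3.73 (SE 0.51) and Aldh2 by 1.89 (SE 0.18), while Mt3 fell by 1.74 (SE 0.48). Of 26 genes of phagocytosis, complement and the lysosome, 16 rose and Tyro3, a phagocytic receptor kinase, fell by 0.92 (SE 0.22). Megf10, an engulfment receptor of glia, rose by 1.98 (SE 0.18), Grn, the lysosomal protein progranulin, by 1.89 (SE 0.16) and Mfge8, a bridge to apoptotic cells, by 1.67 (SE 0.17).

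**Figure D5:**
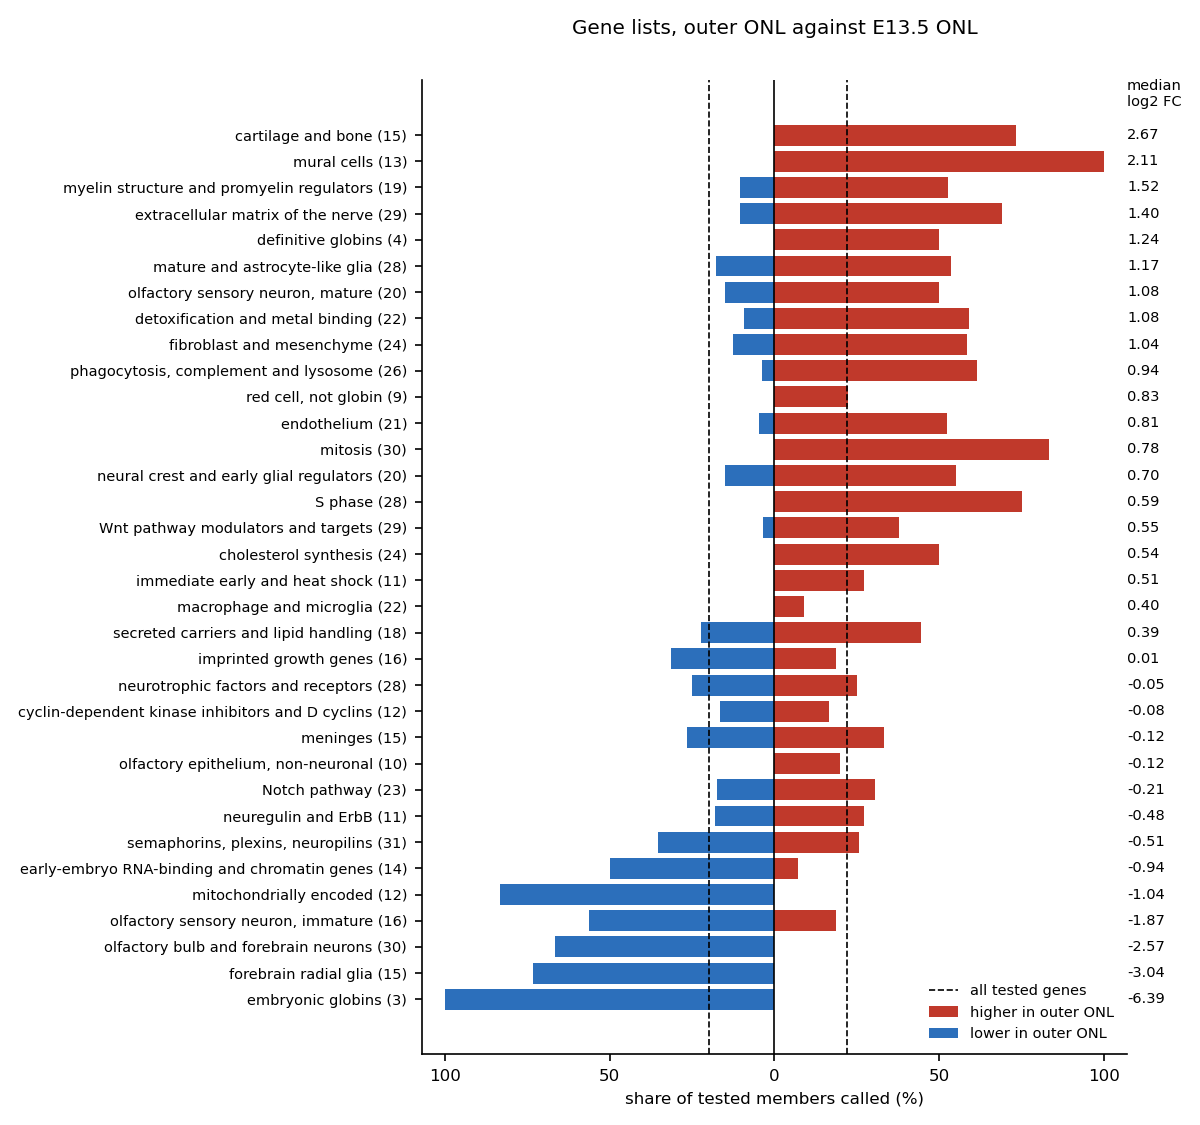
Share of each list's tested members (number in brackets) that was called higher (red) or lower (blue) in the outer ONL, with the median log2 fold change at the right and dashed lines at 21.9% and 20.0%, the shares over all tested genes. Mural and mitosis genes extend far to the right (13 of 13 and 25 of 30) and bulb neuron and radial glial genes to the left (20 of 30 and 11 of 15).

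Genes that track handling or RNA quality also moved. Of 12 mitochondrially encoded genes tested, 10 fell and none rose, beside 20.0% and 21.9% of all genes, with mt-Cytb falling by 0.49 (SE 0.19). The count was 5 without outer library 1, 3 without E11.5 ON 3, and 0 against the libraries labelled E13.5 ONL. The mt-Cytb call was lost without any 1 of outer libraries 1, 3 and 4 and E11.5 ON 3 and 4. Lars2 fell by 1.01 (SE 0.34), a call lost without outer library 1 or 3, and Actb by 0.65 (SE 0.17). Of 11 immediate early and heat shock genes, 3 rose, beside 21.9% of all genes. Among them were Ier2, up by 1.17 (SE 0.31), and Dnajb1, up by 0.49 (SE 0.14). None of 5 sex-linked genes was called, and 4 would be without E11.5 ON 1.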

How the data were processed

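RNA was taken from laser-microdissected pieces of olfactory nerve layer, amplified full-length with SMART-seq and sequenced as paired ends. Per the paper's methods and the submitters' processing notes, the authors aligned reads to mm10 with TopHat2 2.1.0, counted them per Ensembl gene with HTSeq and tested them with DESeq2 (notes: 3.7), and the deposited table holds these raw counts for 47729 genes in 31 libraries, with no replicates pooled. No molecular identifiers were used, so intervals and floors cover counting error only.

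Libraries were grouped as in the study's own table of group means. With E11.5 ON 1 to 4 and E13.5 ON 1 as E13.5 ONL, 1990 of 1990 genes fell within 1% of that table's ratio of E13.5 ONL to outer ONL, against 40 (2.01%) with the libraries labelled E13.5 ONL and 329 (16.5%) with those labelled E11.5 ON. Genes were filtered with filterByExpr, scaled by TMM and fitted over all 31 libraries in 7 groups with glmQLFit and glmQLFTest in edgeR 4.0.16 under R 4.3.3, which lets all groups share 1 estimate of the spread. Levels relative to Sox10 and globin shares were tested by full enumeration of the 126 arrangements in R (exact permutation test). DESeq2 1.42.0 served as an alternative only.

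The 42 gene lists (706 genes) and the comparison itself were chosen with earlier results of these data known. Lists can share genes, so OEC genes chosen at E16.5 are counted again elsewhere. Examples are Vtn (mural), Nkd2 and Frzb (Wnt), Hey2 and Heyl (Notch), and Sema3b and Sema6a (semaphorins). Genes were named by rule: the 12 largest changes each way among called genes with no overlap and at least 50 CPM in the higher group, the 6 highest called genes each way, the OEC genes of the study, the globins, and in each list up to 3 called members each way with the largest changes and at least 10 CPM. Xist and Ddx3y were named outside it, after their values were seen. A few genes that the rule names are not reported here. Outer and E13.5 libraries with the same number correlated at -0.109 to 0.131 in their deviations, so numbers do not pair them.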

Additional observations from a re-analysis of the deposited data

Results flagged for a closer look

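Dixon's test was run on 140 groups (70 genes) and singled out 1 library in 11 of them, where chance gives about 1 in 20. In the outer ONL, library 1 was high for Ptn (8673 CPM, others 5374 to 5797) and Selenop (6016 CPM, others 3189 to 3530) and low for Sparc (2090 CPM, others 2653 to 2745). Outer library 2 was high for Igfbpl1 (2.83 CPM, others 0 to 0.183) and outer library 4 for Lhx9 (2.32 CPM, others 0.64 to 0.844). At E13.5, library E11.5 ON 1, the shallowest, was high for Neurod6 (397 CPM, others 206 to 250), Cntn1 (102 CPM, others 25.6 to 39.5), Lhx9 (99.3 CPM, others 46.9 to 60.5) and Fam198a (11.6 CPM, others 4.88 to 6.26). Library E11.5 ON 2 was high for Adgrg1 (127 CPM, others 60.8 to 68.3) and Aldoc (62.9 CPM, others 6.44 to 14.3).

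Outside the compared libraries, Hbb-bh1, an embryonic globin, stood at 39.5, 170, 1370, 2400 and 1450 CPM in libraries 1 to 5 labelled E13.5 ONL, above the 9.68 to 36.5 CPM of the 5 libraries used as E13.5 ONL.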

How the results depend on the processing

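Adjusted p of 0.05 called 8095 genes, and 4594 of them (2280 higher, 2314 lower) also moved by 1 or more on the log2 scale. Counts stayed within 1.5 times under library totals (8055, of which 3766 higher and 4289 lower), upper quartile factors (8064, 3955 higher and 4109 lower), no filter (7387), a stricter filter (7665), the 9 libraries alone (7081) and DESeq2 (8431, with 98.7% of calls shared). Leaving out 1 library gave 7104 to 8115 calls, 3803 to 4200 higher and 3284 to 3915 lower, and embryonic globin differences of -75.3 to -69.8 percentage points. The replicate block, for numbers that do not pair the samples, was fitted to the 9 libraries alone and gave 6150 calls beside the 7081 of those libraries without it. Without outer library 1, which was lowest in cartilage genes, 12 of 184 named genes lost their call. Depth limits low genes most in E11.5 ON 1.

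With the libraries labelled E11.5 ON, 80.6% of calls were shared. All of these are among the libraries used here as E13.5 ONL, so that share is high in part by construction. With the libraries labelled E13.5 ONL, none of which is in that group, 51.8% were shared, with 148 opposite. Against the latter these log2 fold changes changed sign, and the cause was not tested: Actb 0.0151, Aldh1a2 -0.468, Dnajb1 -0.126, Emx1 1.14, Epha3 0.131, Fyn 1.5, Gfra2 -0.226, Gng8 -2.43, Grb10 -0.475, Hes1 -1.61, Hes5 2.72, Id2 1.1, Ier2 -1.55, Lars2 0.00607, Mapk13 -0.405, mt-Cytb 0.189, Mt3 0.47, Ncan 1.68, Neurod2 2.57, Neurod6 5.42, Ntrk3 0.964, Pou3f1 0.343, Pou3f2 1.38, Reln 0.534, Sfrp5 -0.383, Slc1a2 0.944, Tfap2e 6.19, Tmem119 -2.02, Vcan 0.36, Wif1 10.1 and Zic1 0.859. Fyn and Hes5, near 0 and not called, also changed sign against the libraries labelled E11.5 ON (0.137 and 0.119) and without E13.5 ON 1 (0.136 and 0.111), Fyn with the replicate block (0.00949), without outer library 3 (0.00755) or 4 (0.0173), and Hes1 without E11.5 ON 1 (-0.0435). Over the libraries left out in turn Fyn ranged from -0.0969 to 0.136, Hes1 from -0.0435 to 0.49 and Hes5 from -0.461 to 0.111. Relative to Sox10, an alternative chosen after seeing the data, all genes shift down together (median -2.27), so a gene that rose less than Sox10 turns negative by construction. These did: Adgrg1 -1, Frzb -0.483, Hes1 -1.88, Hey2 -1.04, Heyl -0.387, Lypd6 -0.846, Nell2 -0.193, Ptprz1 -0.468, Sema6a -0.686, Sfrp5 -1.36, Sox5 -0.556 and Zbtb20 -0.258.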
